A study of Mus musculus with 18 samples.

Results

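The comparison described here set the expression change of regulatory T (Treg) cells that overexpress the whole miR-23/27/24 microRNA cluster against the sum of the changes in Treg cells that overexpress miR-23, miR-24 or miR-27 alone. It used 15 of the 18 RNA sequencing libraries of the study, 3 in each of 5 groups, and all 11520 genes listed at 1 RPKM or more in at least 3 of the 18 libraries (RPKM, reads counted per kilobase of gene length and corrected for library size). For each gene the excess was calculated on log2(RPKM + 0.5) as the cluster difference from WT minus the sum of the 3 single differences from WT. An excess of 0 means that the single differences add up to the cluster difference on the log2 scale, a positive excess that the cluster group lay above the sum, and a negative excess that it lay below it.

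Treg cells of C57BL/6 mice were sorted as CD4+CD25hi cells, and total RNA with the small RNAs kept was sequenced. The groups are named after their labels as miR-23 Tg, miR-24 Tg, miR-27 Tg, cluster Tg and WT. The controls carry the label WT Tg, and the labels do not say which alleles or transgenes these control mice held. Overexpression was restricted to T cells, with CD4-cre named as the driver, so it was not limited to Treg cells. DKO, in which both genomic clusters (miR-23a and miR-23b) were deleted in T cells, gave only an estimate of the spread. Neither the age of the mice nor the number of mice behind a library is given in the labels, so the p-values measure the spread between these libraries, which may be technical.

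MicroRNAs are short RNAs that guide Argonaute proteins to messenger RNAs, mainly through pairing of the seed at the 5′ end of the microRNA with a complementary site in the 3′ untranslated region (UTR), and so lower the stability and translation of the target. MicroRNAs of one cluster are cut from one primary transcript but can have unlike seeds and thus separate sets of direct targets. Treg cells depend on the transcription factor Foxp3 and on microRNA processing to hold back other immune cells, and effector Treg cells, a more activated state, carry more Icos, Irf4 and Maf.

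The mature sequences are shown because the 3 seeds, bases 2 to 8 in capitals, define the sites that are counted further on. They are the RefSeq entries for build GRCm38.p6 and lie on the plus strand of chromosome 8 at chr8:84208563-84208583, chr8:84208875-84208896 and chr8:84208727-84208747, in the order given.
mmu-miR-23a-3p: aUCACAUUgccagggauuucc
mmu-miR-24-3p: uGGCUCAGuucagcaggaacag
mmu-miR-27a-3p: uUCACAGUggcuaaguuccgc
No 2 of these seeds are the same. The matching heptamers in DNA are AATGTGA for miR-23, CTGAGCC for miR-24 and ACTGTGA for miR-27.

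The sorted cells carried the Treg markers in all 15 libraries, with Foxp3 at 196.6 to 336.2 RPKM and Il2ra, which encodes CD25, at 155.0 to 255.1 RPKM. The depth estimated from the smallest steps between RPKM values was 20.6 to 31.62 megareads per library. Markers of B cells were present at a low level and moved with the groups. The summed RPKM of 10 B cell markers was 19.8 to 25.3 in WT, 30.1 to 46.4 in cluster Tg, 38.8 to 47.0 in miR-23 Tg, 41.2 to 96.6 for miR-24 Tg and 38.3 to 112 for miR-27 Tg, and none of the 10 was at 0 in a whole group. The summed RPKM of 10 myeloid markers was 18.2 to 25 in WT, 31.1 to 43.3 in cluster Tg, 37.1 to 54.7 in miR-23 Tg, 27.9 to 139 for miR-24 Tg and 35.5 to 108 for miR-27 Tg. Library 1 of miR-24 Tg and library 3 of miR-27 Tg were the highest for both lists, and the main counts are also given without that pair. In bulk RNA, fewer cells of a type and less RNA per cell cannot be told apart.

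The cluster transgene gave fewer reads at each microRNA locus than the matching single transgene. At Mir23a the cluster Tg libraries were at 22900, 17106 and 11691 RPKM and the miR-23 Tg libraries at 31554, 31028 and 38276 RPKM. At Mir27a they were at 24076, 18298 and 13710 RPKM against 76991, 79108 and 50014 RPKM for miR-27 Tg. At Mir24-2 they were at 7943, 6413 and 6052 RPKM against 7999, 22325 and 10166 RPKM for miR-24 Tg. The groups did not overlap at any of the 3 loci, although at Mir24-2 the highest cluster and the lowest miR-24 Tg library were close. The mean of cluster Tg was 51.3% of that of the single group at Mir23a, 50.4% at Mir24-2 and 27.2% at Mir27a. An exact two-sided permutation test gave p = 0.1 at each locus, the smallest that 3 against 3 libraries allow. Reads at these loci need not follow the mature microRNA, and the part of these unequal levels in the comparisons that follow was not tested.

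**Figure D1:**
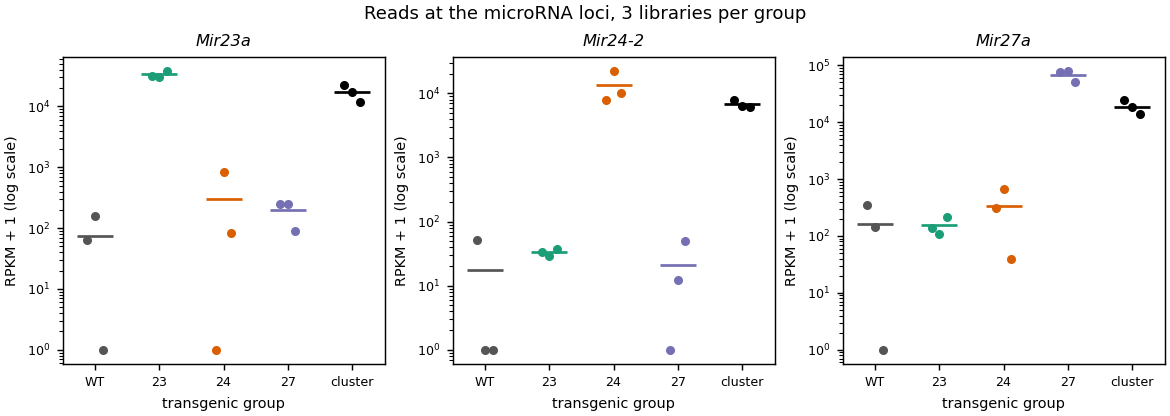
RPKM + 1 on a log axis at the 3 microRNA loci in each library of WT, miR-23 Tg, miR-24 Tg, miR-27 Tg and cluster Tg; points are libraries and bars are means of 3. Cluster Tg reached 51.3%, 50.4% and 27.2% of the matching single group at Mir23a, Mir24-2 and Mir27a.

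For most genes the excess was small or could not be told from 0. Its median over the 11520 genes was 0.01 with quartiles of -0.25 and 0.24 (log2), and its 95% interval lay within ±1 for 7332 genes (63.6%). The contrast is less precise than a single difference, with a median standard error (SE) of 0.26 against 0.13. This is because it draws on all 5 groups and WT enters it with a weight of 2. By limma with Benjamini-Hochberg adjustment, 128 genes (1.11%) had an excess at an adjusted p under 0.05, 52 positive (0.451%) and 76 negative (0.66%), and 1876 had an unadjusted p under 0.05. The median excess was 1.19 among the 52 and -1.93 among the 76. Without the pair of libraries highest in B cell and myeloid markers the counts were 20 positive and 32 negative, of which 18 and 26 were among the 128. Of the called genes named below, these lost their call without that pair, with adjusted p of 0.0505 to 0.133: Igsf23, Khdc1a, Selp, Trpm1, Tnnt2, Mcl1, Hacl1, Gm8369, Ndfip2, Cd5, Tnfrsf18 and Phtf2 on the positive side, and Il1b, Icos, Fcer2a, Mki67, Foxm1, Pole, Ccr4, Adam19, Lacc1, Top1 and Dgcr8 on the negative side. Espl1, Incenp and Ncapd2, also named below, were not followed in the fit without that pair. The nearest genes on either side of the threshold had adjusted p of 0.0480 and 0.0507.

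All 128 genes fell short of the sum, and none went beyond it, as 17.1% of all tested genes did. The excess contains the sum with a negative sign, so the opposite direction is common by construction and was seen for 82.9% of all tested genes. In 117 of the 128 (91.4%, against 62.3% of all tested genes) the cluster difference lay between 0 and the sum. In 11 (8.59%, against 20.6%) it lay on the other side of WT. For 120 (93.8%, against 40.9%) all 3 single differences had one sign, and on the linear RPKM scale the excess kept its sign in all 128. Of the 52 positive genes, 10 had a sum that would put the level below 0 RPKM, which no library can reach, so that their excess could only be positive. Of the 128 genes, 16 were called whichever of the 15 libraries was left out.

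The excess can be split into 2 parts: the cluster level minus the mean level of the 3 single groups, and minus 2 times the mean of the single differences from WT. A shift that the 3 single groups share therefore enters the sum 3 times and the cluster difference once. Among the 52 positive genes the mean of the single groups differed from WT by a median of -0.54 (log2) and the cluster group differed from that mean by a median of 0.09. Among the 76 negative genes the corresponding medians were 0.92 and -0.20. The comparison of cluster Tg with the mean of the single groups contains no WT library, and it called 1067 genes (9.26%), 668 higher (5.8%) and 399 lower (3.46%). It called 26 of the 128 genes (20.3%), 14 with a positive and 12 with a negative excess. Of the 14, 10 were higher and 4 lower in cluster Tg than the mean of the single groups. Of the 12, 8 were lower and 4 higher. The other genes short of the sum did not pass there.

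**Figure D2:**
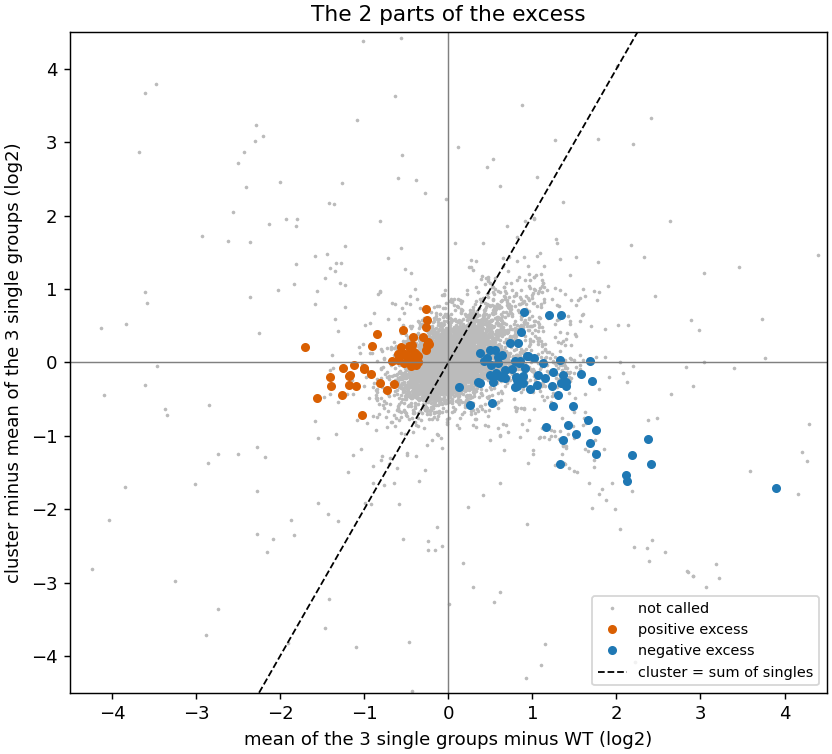
Each point is a gene; the x axis is the mean of the 3 single groups minus WT and the y axis cluster Tg minus that mean, both in log2(RPKM + 0.5), and the dashed line marks an excess of 0. The 52 positive genes lie left and the 76 negative genes right of 0 on the x axis, mostly near 0 on the y axis; 28 tested genes, none of them called, lie outside the plotted range.

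Among the genes that fell in the single groups, Ecm1 had the smallest adjusted p. Ecm1 (chr3:95734147-95739569, minus strand) encodes a secreted matrix glycoprotein that Treg cells and Th2 cells express. WT libraries were at 125, 128 and 168 RPKM and cluster Tg at 55.3, 70.4 and 61.5 RPKM. The single groups were at 90.3, 86.5 and 84.6 (miR-23 Tg), 29.7, 33.1 and 33.1 (miR-24 Tg) and 97.2, 97.9 and 82.8 RPKM (miR-27 Tg). Cluster Tg lay below every WT, miR-23 Tg and miR-27 Tg library and above every miR-24 Tg library. All 4 transgenic groups fell against WT, and the sum of -3.36 would have put cluster Tg at 13.1 RPKM where 62.4 was measured. The excess was 2.2 (SE 0.23, adjusted p = 0.000975), called in all 15 fits that left out a library.

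Fas (chr19:34290666-34327772), the death receptor that triggers apoptosis on binding Fas ligand, fell in miR-24 Tg, miR-27 Tg and cluster Tg, with the largest difference for miR-27. WT was at 53.6, 54.2 and 54.8 RPKM, miR-27 Tg at 23.8, 21.4 and 22.1 and cluster Tg at 36.9, 36.4 and 42.9 RPKM. miR-23 Tg was at 43.9, 51.9 and 47.1 RPKM and miR-24 Tg at 39.8, 44.0 and 43.1 RPKM. No cluster Tg library overlapped WT, miR-23 Tg or miR-27 Tg, and the cluster Tg range overlapped that of miR-24 Tg. The single differences of -0.19, -0.36 and -1.25 summed to -1.80 and the cluster difference was -0.48, an excess of 1.31 (SE 0.15, adjusted p = 0.00170). Mcl1, also on the apoptosis list, encodes a survival protein of the Bcl2 family. It was at 287, 277 and 298 RPKM in WT and 216, 214 and 245 in cluster Tg. The single groups were at 257, 262 and 243 (miR-23 Tg), 218, 209 and 205 (miR-24 Tg) and 229, 204 and 202 RPKM (miR-27 Tg). Cluster Tg lay below every WT library and overlapped each single group. Its excess was 0.72 (SE 0.14, adjusted p = 0.0354), and leaving out any miR-23 Tg or WT library, or miR-27 Tg library 2 or 3, ended the call (adjusted p of 0.0564 to 0.134).

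The noncoding transcript Gt(ROSA)26Sor, from the locus most used for inserting transgenes in mice, had the largest positive excess of the named genes. It was at 14.6, 13.3 and 18.8 RPKM in WT. It was at 4.93, 5.76 and 5.93 RPKM in miR-23 Tg, 4.84, 4.83 and 3.71 for miR-24 Tg, and 3.96, 3.38 and 3.06 for miR-27 Tg. The cluster Tg libraries were at 3.11, 5.48 and 7.84 RPKM. Every transgenic library lay below every WT library, and the cluster Tg range spanned most of the other transgenic libraries. The single groups fell against WT by 1.40, 1.69 and 2.01 on the log2 scale and cluster Tg by 1.5, and the excess was 3.61 (SE 0.46, adjusted p = 0.00315).

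Other genes that fell in single groups and were short of the sum were Rasip1 (excess 2.18, SE 0.28), which encodes a Ras-interacting protein of blood vessels, Khdc1a (2.47, SE 0.42), Lcn10 (2.63, SE 0.48), a lipocalin gene, and Tnnt2 (2.63, SE 0.58), cardiac troponin T. Trpm1 (2.17, SE 0.48), a cation channel gene, Selp (2.05, SE 0.39), which encodes P-selectin, and Igsf23 (2.09, SE 0.46) complete the named set. All of these except Igsf23 are among the 10 with a sum below 0 RPKM, as is Gt(ROSA)26Sor. Apart from Igsf23 and Gt(ROSA)26Sor, no cluster Tg library exceeded 2.41 RPKM for any gene of this paragraph. Of these genes other than Gt(ROSA)26Sor, only Rasip1 kept its call in all 15 fits with a library left out. Igsf23 and Selp had been called lower in miR-24 Tg and miR-27 Tg but not in miR-23 Tg. Igsf23 was at 15.7, 20.5 and 21.8 RPKM in WT and 3.60, 6.01 and 7.78 in cluster Tg, which overlapped miR-27 Tg at 4.58, 6.50 and 5.37 and miR-24 Tg at 4.53, 2.66 and 2.66 RPKM. Its call ended when any WT or miR-23 Tg library was left out, or library 2 or 3 of miR-24 Tg, miR-27 Tg or cluster Tg (adjusted p of 0.0570 to 0.132).

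**Figure D3:**
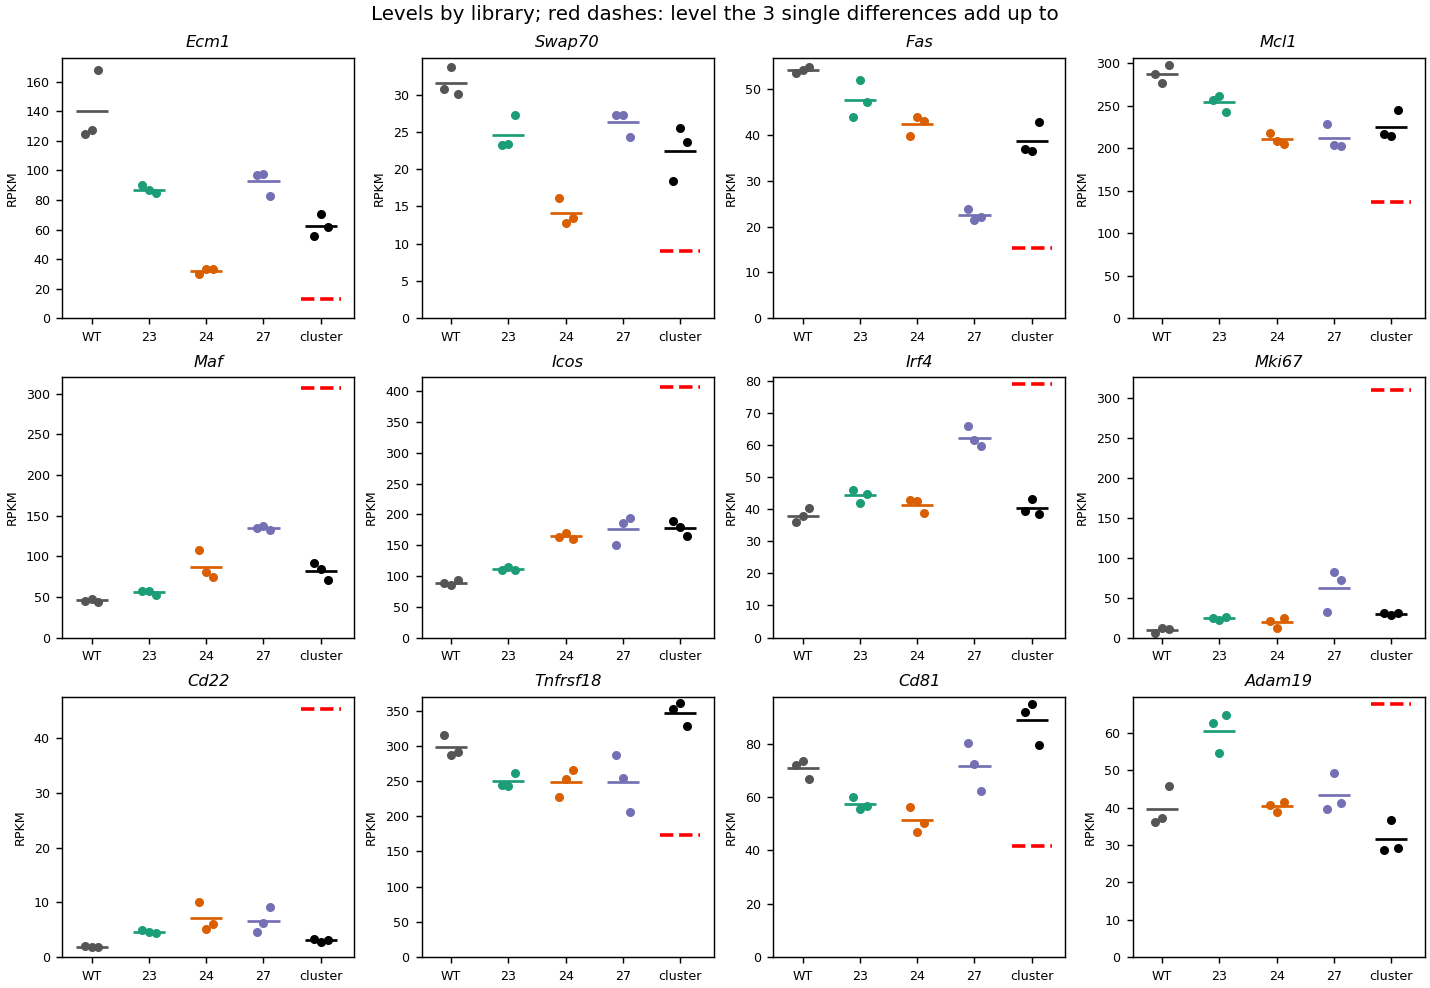
RPKM of 12 genes in each library of WT, miR-23 Tg (23), miR-24 Tg (24), miR-27 Tg (27) and cluster Tg, on linear axes from 0; points are libraries, bars are means of 3 and the red dashes mark the level to which the 3 single differences add up on the log2 scale. Cluster Tg lies off the red mark in all 12, above it for Ecm1, Swap70, Fas, Mcl1, Tnfrsf18 and Cd81 and below it for Maf, Icos, Irf4, Mki67, Cd22 and Adam19.

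Of the 34 effector Treg genes, 4 had a called negative excess (Maf, Icos, Irf4 and Ccr4), none a called positive one and 30 did not pass. The called share was 11.8%, against 1.11% of all tested genes. The median excess was -0.69 against 0.01 over all genes. The median sum was 1.73 and the median cluster difference 0.93. In the comparison without WT, 11 of the 34 were higher in cluster Tg than the mean of the single groups and 1 was lower. Over all tested genes, 5.8% were higher and 3.46% lower there. The median difference of the 34 from that mean was 0.52.

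Maf (chr8:115682942-115707794, minus strand) encodes c-Maf, a transcription factor of effector T cells. It was at 45.0, 48.0 and 44.2 RPKM in WT, 56.9, 57.4 and 52.2 in miR-23 Tg and 108, 80.1 and 74.5 for miR-24 Tg. miR-27 Tg was at 134, 137 and 132 RPKM and cluster Tg at 92.1, 83.9 and 71.4 RPKM. Cluster Tg lay above all WT and miR-23 Tg libraries, within the range of miR-24 Tg but for its lowest library, and below all miR-27 Tg libraries. The sum of 2.73 would have put cluster Tg at 307 RPKM where 82.5 was measured, an excess of -1.90 (SE 0.27, adjusted p = 0.00681), called in all 15 fits with a library left out.

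Irf4 (chr13:30749226-30766976), a transcription factor that effector Treg cells need, passed the test against WT in miR-27 Tg and in no other group of the comparison. It was at 35.9, 37.7 and 40.4 RPKM in WT, 65.9, 61.4 and 59.6 for miR-27 Tg and 39.4, 43.3 and 38.5 RPKM for cluster Tg. In miR-23 Tg it was at 46.1, 42.1 and 44.8 RPKM and in miR-24 Tg at 42.8, 42.5 and 38.7 RPKM. Cluster Tg overlapped WT, miR-23 Tg and miR-24 Tg and lay below every miR-27 Tg library. The cluster difference was 0.09 (95% interval -0.06 to 0.24) and the excess -0.96 (SE 0.14, adjusted p = 0.0069), called in all 15 fits with a library left out.

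Icos, a costimulatory receptor, reached in cluster Tg the level of the 2 higher single groups. It was at 88.8, 84.9 and 93.2 RPKM in WT, 164, 171 and 160 for miR-24 Tg, 150, 186 and 195 for miR-27 Tg and 189, 179 and 165 RPKM for cluster Tg. miR-23 Tg lay between, at 109, 114 and 110 RPKM. Cluster Tg overlapped miR-24 Tg and miR-27 Tg and lay above the other groups. Its excess was -1.19 (SE 0.21, adjusted p = 0.0204), and leaving out any 1 WT library ended the call (adjusted p of 0.0531 to 0.0855). Ccr4, a chemokine receptor that draws T cells to skin and inflamed tissue, was at 20.4, 26.3 and 27 RPKM in WT, 55.3, 46.7 and 36.6 for miR-24 Tg and 78.1, 94.0 and 84.4 for miR-27 Tg. miR-23 Tg was at 30, 25.4 and 25.4 RPKM. Cluster Tg, at 47.4, 57.3 and 46.1 RPKM, overlapped miR-24 Tg and lay above WT and miR-23 Tg and below miR-27 Tg. The excess was -1.78 (SE 0.37, adjusted p = 0.0416), and the call ended when any WT or miR-23 Tg library was left out, or miR-24 Tg library 1, or library 2 or 3 of miR-27 Tg or cluster Tg (adjusted p of 0.0536 to 0.165).

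An excess was called for 2 of 34 listed mitosis genes (5.88%) and 1 of 31 listed genes of DNA replication and S phase (3.23%). All 3 calls were negative, against 0.66% of all tested genes. These 3 calls ended without the pair of libraries highest in B cell and myeloid markers, with adjusted p of 0.0991 to 0.119. The lists do not hold every proliferation gene. Espl1, Incenp and Ncapd2, which act in mitosis and are on neither list, also had negative calls (-3.07, -2.06 and -1.82). They kept their calls in 4, 4 and 3 of the 15 fits with a library left out. Their values without that pair are not given here. All 34 mitosis genes had an excess below 0, with a median of -2.92, a median sum of 4.27 and a median cluster difference of 1.29, and the 2 that passed were Mki67 and Foxm1, a transcription factor of mitotic entry, while all 34 had an unadjusted p under 0.05. All 31 genes of DNA replication and S phase also lay below 0, with a median excess of -1.22, and the 1 that passed was Pole, a DNA polymerase subunit, at -1.44. Cluster Tg differed from the mean of the single groups by a median of only -0.08 for the mitosis list and -0.07 for the S phase list, and no gene of either list was called there in either direction.

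Mki67, the gene of the proliferation marker Ki-67, was at 5.69, 11.8 and 10.4 RPKM in WT and 31.0, 28.1 and 31.1 in cluster Tg. It was at 24.9, 22.3 and 25.7 RPKM in miR-23 Tg, 20.8, 12.5 and 25.1 for miR-24 Tg and 31.9, 82.6 and 71.7 RPKM for miR-27 Tg. Cluster Tg lay above every library of WT, miR-23 Tg and miR-24 Tg and just below the lowest of miR-27 Tg, whose library 1 stood apart from the other 2. The excess was -3.35 (SE 0.67, adjusted p = 0.0344). The summed RPKM of the mitosis list was 93.2 to 195 in WT, 338 to 439 in cluster Tg, 386 to 405 in miR-23 Tg, 138 to 385 for miR-24 Tg and 385 to 1017 for miR-27 Tg, with miR-27 Tg library 1 at the low end. The calls of Mki67 and Foxm1 ended when any WT or miR-23 Tg library was left out, or miR-24 Tg library 1, or library 2 or 3 of miR-27 Tg or cluster Tg, with the highest adjusted p at 0.149 and 0.169. On the linear RPKM scale Mki67 was not called.

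Of the 8 named genes with the largest negative excess, 6 were markers of B or plasma cells, and the other two were Hbb-bh1 and Slpi (-5.88, SE 1.24), which encodes a secreted protease inhibitor. Of 9 tested B cell markers, 6 (66.7%) had a called negative excess (among them Ms4a1, Cd22 and Pax5), against 0.66% of all tested genes. The excess lay below 0 for all 9, called or not, and for 5656 of all 11520 tested genes. Over the list the median excess was -4.47, the median sum 5.06 and the median cluster difference 0.59. Of 5 plasma cell markers 2 passed, Igj (-9.51, SE 1.79), the antibody joining chain, and Mzb1 (-6.21), a chaperone of antibody-secreting cells. Of 8 myeloid markers none passed in limma and 6 had an unadjusted p under 0.05, with a median excess of -3.48. Of 4 erythroid markers none passed (median -4.24, 2 at an unadjusted p under 0.05). Every transgenic library had higher sums of B cell markers and of myeloid markers than every WT library, and the part of other cells in the calls was not tested.

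Cd22, an inhibitory receptor of B cells, was the steadiest of these. It was at 2, 1.73 and 1.87 RPKM in WT and 3.36, 2.69 and 3.07 in cluster Tg. It was at 4.88, 4.53 and 4.34 RPKM in miR-23 Tg, 10.1, 5.13 and 6.10 for miR-24 Tg and 4.56, 6.21 and 9.16 for miR-27 Tg. Cluster Tg lay above every WT library and below every single-member library. The excess was -3.70 (SE 0.49, adjusted p = 0.00380) with all libraries and -3.19 (adjusted p = 0.00627) without the 2 libraries highest in B cell and myeloid markers. Hbb-bh1, a globin gene of the embryo, had the value 0 in each of the 3 WT libraries. It was at 2.35, 2.40 and 2.54 RPKM in miR-23 Tg, 0.98, 2.72 and 1.22 for miR-24 Tg and 3.45, 3.2 and 1.23 for miR-27 Tg. In cluster Tg it was at 0.599, 0.900 and 0.806 RPKM, below every single-member library, and its excess (adjusted p = 0.000975) has no interpretable fold since WT was listed at 0.

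**Figure D4:**
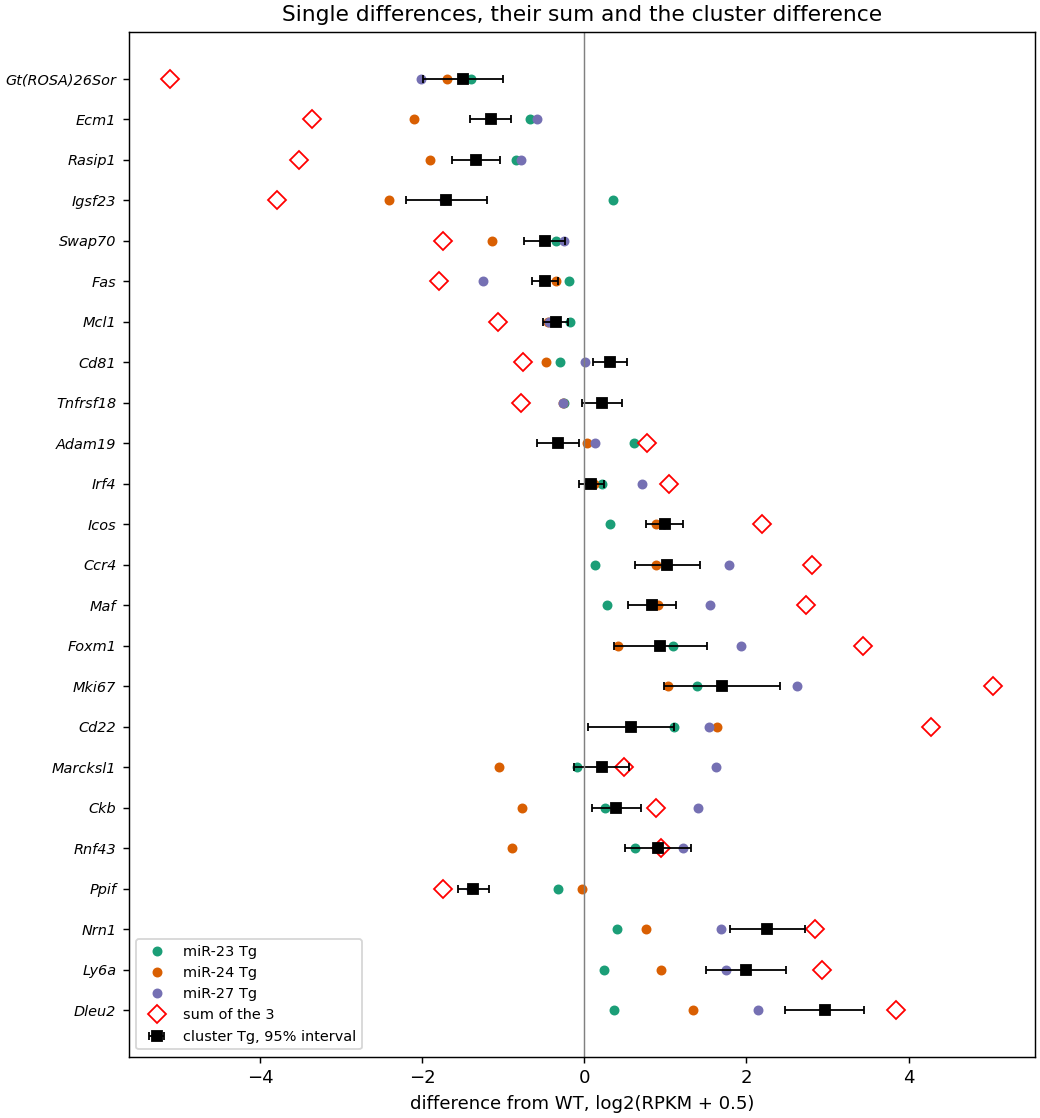
Differences from WT in log2(RPKM + 0.5) for 24 genes: filled circles are the 3 single groups, red diamonds their sum and black squares cluster Tg with its 95% interval. From Gt(ROSA)26Sor to Cd22 the sum lies outside the interval of cluster Tg. For Marcksl1 and Rnf43, where miR-24 Tg and miR-27 Tg lie on opposite sides of 0, it lies within it. The sum also lies outside for genes without a called excess, such as Ckb and Dleu2. The interval leaves out the error of the sum and is not the test of the excess.

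In 11 of the 128 genes cluster Tg lay on the other side of WT from the sum, a smaller share (8.59%) than over all tested genes (20.6%). They were Tnfrsf18, Cd81, Ndfip2, Serp1, Phtf2, Hacl1 and Gm8369 above WT and Adam19, Top1, Il1b and Lacc1 below it, a group singled out after the values were seen. Against WT itself the cluster difference passed the test for Cd81, Gm8369 and Top1. Tnfrsf18 encodes GITR, a receptor that marks Treg cells. It was at 352, 360 and 328 RPKM in cluster Tg and 315, 287 and 292 RPKM in WT. It was at 244, 243 and 261 in miR-23 Tg, 227, 253 and 266 for miR-24 Tg and 287, 254 and 206 RPKM for miR-27 Tg. Every cluster Tg library lay above every other library of the comparison, and cluster Tg was 0.48 higher than the mean of the single groups (adjusted p = 0.00768). The excess was 1.0 (SE 0.23, adjusted p = 0.0480), which passed only without miR-24 Tg library 3 or miR-27 Tg library 1 among the 15 fits with a library left out (highest adjusted p 0.172).

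Cd81, a tetraspanin of the cell surface, was at 91.9, 94.9 and 79.6 RPKM in cluster Tg and 72.1, 73.7 and 66.7 RPKM in WT. It was at 60.1, 55.6 and 56.7 in miR-23 Tg, 56.4, 47.0 and 50.3 for miR-24 Tg and 80.4, 72.4 and 62.1 RPKM for miR-27 Tg. Cluster Tg lay above WT, miR-23 Tg and miR-24 Tg without overlap, and its lowest library lay below the highest of miR-27 Tg. The cluster difference of 0.32 passed the test (adjusted p = 0.0280), as did the fall of -0.47 for miR-24 Tg (adjusted p = 0.00923). The excess was 1.08 (SE 0.20, adjusted p = 0.0215), and leaving out miR-23 Tg library 2 or any WT library ended the call (adjusted p of 0.0501 to 0.1). In the other direction, Adam19, which encodes a membrane protease, was at 62.6, 54.6 and 64.9 RPKM in miR-23 Tg, where it rose, and 36.2, 37.1 and 45.8 RPKM in WT. Cluster Tg, at 28.7, 36.7 and 29.3 RPKM, overlapped WT and lay below every single-member library. The excess was -1.10 (SE 0.24, adjusted p = 0.0436), passing in 5 of the 15 fits with a library left out, those without library 2 of miR-24 Tg, 1 of miR-27 Tg, 1 or 2 of cluster Tg, or 3 of WT (highest adjusted p 0.169). It was not called on the linear RPKM scale.

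Members that moved a gene in opposite directions were examined next. By the rule that one single group was called higher and another lower than WT, 40 genes qualified, of which 22 were lower in miR-24 Tg and higher in miR-27 Tg and 14 the reverse; these comparisons share the WT libraries. None of the 40 had a called excess in limma, against 1.11% of all tested genes. With a share that low, no call among 40 genes does not set them apart. An unadjusted p under 0.05 was found for 4 of the 40, against 1876 of all 11520 tested genes. Marcksl1 (chr4:129513581-129515985), which encodes an actin-regulating MARCKS-like protein, was at 21.6, 19.2 and 18.6 RPKM in WT, 8.76, 9.99 and 9.13 for miR-24 Tg and 54.9, 66.6 and 65.8 for miR-27 Tg. miR-23 Tg was at 20.0, 19.3 and 16.3 RPKM and cluster Tg at 26.2, 26 and 17.8 RPKM. Cluster Tg overlapped WT and miR-23 Tg and lay apart from both groups that changed. The sum was 0.48, the cluster difference 0.21 and the excess -0.27 (95% interval -0.94 to 0.40, adjusted p = 0.765).

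Rnf43, an E3 ligase gene of the Wnt pathway, was at 9.15, 7.74 and 7.82 RPKM in WT, 4.62, 4.86 and 3.24 for miR-24 Tg, 22.6, 17.3 and 19.9 for miR-27 Tg and 18.8, 19.6 and 10.9 RPKM for cluster Tg. With miR-23 Tg at 13.5, 12.6 and 12.8 RPKM the sum was 0.95, and cluster Tg rose by 0.91 (95% interval 0.50 to 1.32). The excess was -0.04 (95% interval -0.85 to 0.77). The same order of groups held for Ckb, brain creatine kinase, with single differences of 0.25, -0.77 and 1.41, a cluster difference of 0.39 and an excess of -0.49 (95% interval -1.10 to 0.12). H2afx, a histone variant of the DNA damage response, had single differences of 0.85, -1.05 and 0.96, a cluster difference of -0.30 and an excess of -1.05 (95% interval -2.24 to 0.13). Lhfpl1 had the reverse pattern, with 1.56 for miR-24 Tg, -0.66 for miR-27 Tg and 0.19 for cluster Tg. The intervals of the excess cover 0 for these 5 genes, and their widths do not exclude a shortfall of the size called elsewhere.

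Genes picked by the rule for adding had at least 2 single groups and cluster Tg called in one direction and no single group called the other way. Their interval of the excess covers 0 with a half-width of at most 1. An interval of that width does not show that the excess is near 0. There were 102 such genes. Those with the largest sums were Dleu2, Ly6a, Serpinf1, Nrn1 and Fut7, all higher in miR-24 Tg, miR-27 Tg and cluster Tg. Dleu2, the host transcript of the miR-15a and miR-16 microRNAs, was at 1.94, 1.84 and 2.32 RPKM in WT, 4.90, 6.76 and 6.15 for miR-24 Tg, 11.4, 9.53 and 11.2 for miR-27 Tg and 28.4, 17.4 and 14.3 RPKM for cluster Tg. Every cluster Tg library lay above every library of the other groups, miR-23 Tg (2.82, 3.76 and 1.91 RPKM) included. The sum was 3.85 and the cluster difference 2.96, which left an excess of -0.88 (95% interval -1.85 to 0.09, adjusted p = 0.364).

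Nrn1, neuritin, which anergic and regulatory T cells express, was at 39.1, 33.8 and 28.5 RPKM in WT, 53.8, 66.0 and 52.0 for miR-24 Tg, 135, 96.6 and 98.5 for miR-27 Tg and 213, 177 and 113 RPKM for cluster Tg. Its excess was -0.58 (95% interval -1.50 to 0.33). Ly6a, the Sca-1 antigen of activated T cells, had single differences of 0.24, 0.94 and 1.74 and a cluster difference of 1.99, with an excess of -0.94 (95% interval -1.92 to 0.05). Serpinf1 and Fut7, a fucosyltransferase that makes selectin ligands, had excesses of -0.81 and -0.68 with intervals that cover 0. All 5 lay higher in cluster Tg than in the mean of the single groups, by 0.94 to 1.68. The choice of genes with a large sum and a limited excess interval that covers 0 fixes this, and it is given as a description. On the log2 scale all 5 estimates lay below the sum, while on the linear RPKM scale the excess of Dleu2 (4.64 RPKM), Nrn1 (23.4 RPKM) and Serpinf1 (0.24 RPKM) was above 0.

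For Ppif the difference of 1 single group lay close to that of cluster Tg. Ppif, the mitochondrial cyclophilin of the permeability pore, was at 25.8, 23.1 and 24.8 RPKM in WT, 10.1, 8.12 and 8.98 for miR-27 Tg and 8.77, 9.94 and 8.92 RPKM for cluster Tg. miR-23 Tg was at 19.9, 18.6 and 20.2 RPKM and miR-24 Tg at 25.9, 24 and 22.5 RPKM. Cluster Tg and miR-27 Tg overlapped each other and no other group, with differences of -1.37 and -1.39. The excess was 0.37 (95% interval -0.01 to 0.75, adjusted p = 0.319). For 3 other genes with a large difference in 1 single group, the cluster difference was of the same sign and smaller in size, and the 2 differences were not tested against each other. Itgam, the CD11b integrin chain, rose by 3.70 for miR-27 Tg and 2.60 for cluster Tg, with an excess of -2.2 (adjusted p = 0.0860). Gpr83, a receptor typical of Treg cells, fell by 2.78 for miR-24 Tg and 1.38 in cluster Tg, with an excess of 2.04 (95% interval 0.61 to 3.48, adjusted p = 0.138). Zbtb10, a transcriptional repressor, fell by 2.02 for miR-27 Tg and 0.92 for cluster Tg, with an excess of 0.85 (adjusted p = 0.537).

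The defining Treg genes did not pass the test of the excess. Foxp3 was at 334, 287 and 336 RPKM in WT and 257, 283 and 207 in cluster Tg, with an excess of 0.57 (95% interval -0.14 to 1.27). Il2ra had an excess of 0.62 (-0.04 to 1.28), Ctla4, an inhibitory receptor, of 0.12 (-0.76 to 0.99) and Ikzf2, the factor Helios, of 0.70 (0.06 to 1.33, adjusted p = 0.257). Il10, a suppressive cytokine, had the widest interval, with an excess of -0.98 (-3.08 to 1.12). Rel and Gata3, transcription factors of T cells, had excesses of 0.73 (-0.57 to 2.03) and 0.17 (-1.06 to 1.41). Intervals of this width do not show that the members add for these genes.

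Over the 30 tested genes of Treg identity the median excess was 0.59, with 3 positive calls (Ecm1, Swap70 and Tnfrsf18), none negative and 27 not passing. The called share was 10%, against 1.11% of all tested genes. Swap70, a signalling protein that binds actin and Rac, was at 30.8, 33.7 and 30.1 RPKM in WT, 16.2, 12.8 and 13.4 for miR-24 Tg and 18.4, 25.5 and 23.7 in cluster Tg, with an excess of 1.26 (SE 0.24, adjusted p = 0.0247). The call ended without miR-23 Tg library 1 or 2, miR-27 Tg library 3 or any WT library (adjusted p of 0.0514 to 0.0931). The 43 ribosomal protein genes had a median excess of 0.61 and the 22 resting T cell genes one of 0.35, with no calls by limma and 17 and 5 genes at an unadjusted p under 0.05. The 18 NF-kB genes had a median of 0.31 and the 20 immediate-early genes one of 0.72, also with no calls and with 2 genes each at an unadjusted p under 0.05.

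The lists of T helper programs had median excesses below 0. Calls made up 18.2% of the Th2, 6.67% of the Th17 and 8.33% of the follicular T cell genes, against 1.11% of all tested genes. All called genes of these lists are also on the effector Treg list and were counted there. The median was -1.15 over 17 Th1 genes with no calls by limma and 11 at an unadjusted p under 0.05, -0.96 over 11 Th2 genes with 2 negative calls (Ccr4 and Irf4), -0.86 over 15 Th17 genes with 1 (Maf) and -0.47 over 12 follicular T cell genes with 1 (Icos). The 43 interferon response genes had a median excess of -0.01 and no call (3 at an unadjusted p under 0.05). Against the mean of the single groups, 19 of them were called higher in cluster Tg and none lower. Over all tested genes, 5.8% were higher and 3.46% lower there. The median differences of the interferon response genes from WT were -0.17, 0.18 and 0.55 in miR-23 Tg, miR-24 Tg and miR-27 Tg. The median was 0.65 for cluster Tg and the median sum 0.50. Of 20 apoptosis genes 2 were called positive (Fas and Mcl1), and of 23 migration receptor genes 1 was called positive (Selp) and 1 negative (Ccr4). The called shares were 10% and 8.70%, against 1.11% of all tested genes.

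Further lists with no call at all included the suppression mediators (18 genes, median excess -0.38), glycolysis (19, -0.30), cholesterol synthesis (18, 0.02) and TGF-beta signalling (17, 0.24). These had 6, 4, 1 and 3 genes at an unadjusted p under 0.05. Of 13 genes of the silencing machinery 1 passed (7.69%, against 1.11% of all tested genes). This was Dgcr8, the partner of Drosha in cutting primary microRNAs. It was at 15, 15.1 and 16 RPKM in WT, 21.9, 21 and 20 for miR-24 Tg, 21.7, 25.2 and 24.2 for miR-27 Tg and 23.3, 21 and 22.2 RPKM for cluster Tg. Cluster Tg overlapped both raised single groups, with an excess of -0.62 (SE 0.14, adjusted p = 0.0433) that remained called only without miR-24 Tg library 3, miR-27 Tg library 1 or cluster Tg library 1 among the 15 fits with a library left out (adjusted p of 0.0523 to 0.165 in the others).

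**Figure D5:**
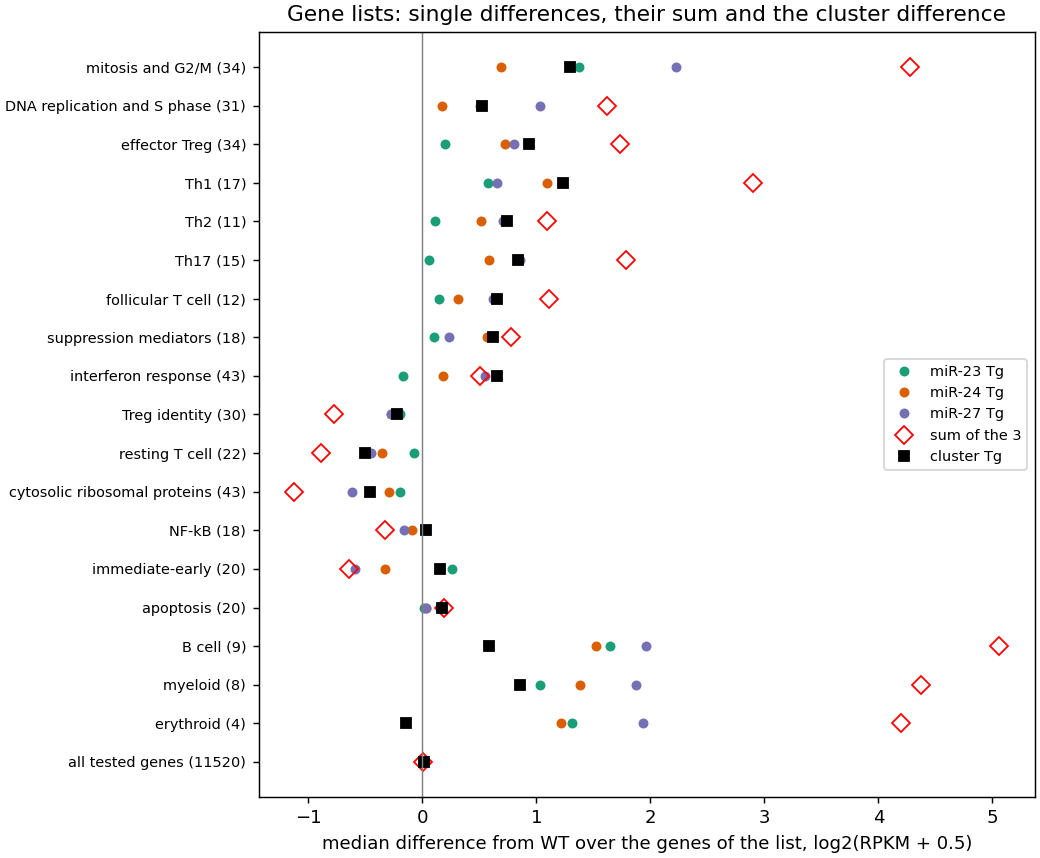
Median difference from WT in log2(RPKM + 0.5) over the tested genes of each list, with the number of genes in brackets: circles are the 3 single groups, red diamonds the median of the sum and black squares cluster Tg. For mitosis genes the median sum is 4.27 and the median cluster difference 1.29, and for interferon response genes 0.50 and 0.65.

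Seed sites in 3′ UTRs were counted for the 10621 tested genes with an annotated 3′ UTR of at least 50 bases, on the transcribed strand. A site for miR-23 was present in 17.2% of them, for miR-24 in 21.1% and for miR-27 in 18.8%. Genes with sites for only one member had small median differences in the matching group, -0.05 for miR-23 (959 genes), -0.05 for miR-24 (1345 genes) and -0.08 for miR-27 (1073 genes). The median excess was 0.01 for the 5993 genes with no site, 0.01 for 3377 with sites for 1 member, -0.01 for 1074 with sites for 2 and -0.07 for 177 with sites for all 3. The share of genes called for excess was 1.25%, 1.18%, 0.559% and 0.565% in these classes, against 1.15% over all 10621. The median 3′ UTR length rose over the same classes, from 828 to 1911, 3032 and 4150 bases. A match describes the sequence and does not show binding.

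The sites of genes described above are shown with the seed match in capitals, as the transcribed strand with T for U. Ecm1, lowest in miR-24 Tg, holds 1 miR-24 match, 7 bases into a 3′ UTR of 93 bases at chr3:95734227-95734233. Fas, lowest in miR-27 Tg, holds a match for miR-23 at chr19:34327582-34327588 and none for miR-27. Irf4, which rose in miR-27 Tg, holds a match for miR-27 at chr13:30763875-30763881 and one for miR-23. Marcksl1, which fell in miR-24 Tg, holds a match for miR-24 at chr4:129515579-129515585 and one for miR-23.
Ecm1 miR-24 site: gtcaccCTGAGCCtc
Fas miR-23 site: tgaaatttgtattaAATGTGAag
Irf4 miR-27 site: tgccctggcttataACTGTGAaa
Marcksl1 miR-24 site: tgcttctcaaccccCTGAGCCag
H2afx, lower in miR-24 Tg, holds 2 matches for miR-24 and 1 for miR-23, and Ckb, also lower there, holds 1 for miR-24. Rnf43, Gpr83, Swap70, Igsf23 and Selp were lower in miR-24 Tg as well and hold no match for miR-24. Zbtb10, which fell in miR-27 Tg, holds none for miR-27. Icos, Ccr4, Mki67, Rasip1 and Tnfrsf18 hold none of the 3 heptamers in this annotation.

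Targets of the members known from the literature were looked at as 3 lists. Of 9 tested targets of miR-23 from the literature 1 passed (Fas), 11.1% against 1.11% of all tested genes. The median excess over that list was 0.34. Of 12 targets of miR-24 none passed in limma (1 at an unadjusted p under 0.05), with a median of -0.24. Of 14 targets of miR-27 none passed (3 at an unadjusted p under 0.05), with a median of 0.11.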

How the data were processed

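Per the submitters' processing notes, reads were handled with STAR 2.2.0c and HOMER on mm10 (GRCm38); which step gave the values and the annotation used are not given in the sources used here. The authors deposited RPKM values for 18 libraries. Of 23953 entries, 4 with a repeated symbol were left out and 27 carried symbols turned into dates. From the deposited RPKM, log2(RPKM + 0.5) was computed and fitted for 11520 genes (at least 1 RPKM in at least 3 libraries) with limma 3.58.1 in R 4.3.3, one mean per group over 18 libraries, with a mean-variance trend and a prior of 2.26 degrees of freedom. Contrasts were cluster - 23 - 24 - 27 + 2 WT and cluster minus the mean of the 3 single groups, two-sided, Benjamini-Hochberg adjusted over all genes with a threshold of 0.05. The method was tested on simulated data. Locations and 3′ UTRs came from GENCODE M21, which matched 11445 tested genes by symbol or synonym, and microRNA sequences from RefSeq. Tables were handled with Python 3.11.15 and pandas 2.3.3 and figures with matplotlib 3.10.9. Named genes were the 8 largest called excesses each way (without predicted, small RNA or antigen receptor symbols), 5 each for the rules on genes short of the sum, adding and opposed, a panel and up to 3 genes per list by p; 11 genes across WT and Cd5, Mcl1, Selp, Cd22, Rasip1 and Khdc1a were chosen after their values were seen. Some genes that meet these rules are not reported here. The members and lists were chosen with earlier results of these data known. The replicate number was not used in the model: over 45 pairs of libraries that share it, deviations from the group means correlated with a median of 0.00 (-0.167 to 0.188), with 6 pairs over 0.1.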

Additional observations from a re-analysis of the deposited data

How the results depend on the processing

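Against 52 positive and 76 negative calls of the excess, only the 15 libraries of the contrast gave 24 and 24, and no filter 38 and 32. Additivity on the linear RPKM scale gave 58 and 32, of which 47 and 22 were among the main calls. Leaving out the 2 libraries highest in B cell and myeloid markers gave 20 and 32. With the replicate number as a block (replicate block) the counts were 69 and 141, and the number does not pair the libraries. A pseudocount of 0.1 gave 53 and 109, one of 1 gave 54 and 70, and median-of-ratios scaling 54 and 75. Leaving out 1 library gave 10 to 171 positive and 10 to 436 negative calls. The counts were lowest without WT library 1 (10 and 10), 2 (14 and 12) or 3 (16 and 16) and highest without miR-27 Tg library 1 (171 and 436) or cluster Tg library 1 (96 and 134). They were 22 and 19, 21 and 20, and 34 and 36 without miR-23 Tg libraries 1, 2 and 3, 32 and 39 without miR-24 Tg library 1, and 57 and 121 without miR-24 Tg library 3. They were 31 and 30 without miR-27 Tg library 2, 29 and 26 without library 3, and 28 and 26, and 34 and 32, without cluster Tg libraries 2 and 3. For cluster Tg against the mean of the single groups (668 higher, 399 lower) these alternatives stayed within 1.5 times except without cluster Tg library 1 (82 and 49) or 2 (374 and 254), with a range over left-out libraries of 82 to 818 and 49 to 487. The cause of these shifts was not tested. Over the named genes, 2422 alternative values kept their side of the threshold, 381 lost a call, 57 gained one and 38 values without a call changed sign; no call turned its direction.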
